A study of Mus musculus with 8 samples.

Results

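Among the 6 genes described here, Slc16a10 carries thyroid hormone into cells and Dio2 activates it. The receptors Thra and Thrb, with their partner Rxra, read it, and Tshr encodes the thyrotropin receptor. The 6 were chosen by name from the 18395 genes counted, and all 6 passed the filter on low counts. The data are gene counts from polyadenylated RNA of mouse adipose tissue, with 8 libraries, 4 of them KO, from mice whose brown adipocytes had lost Kindlin-2, and 4 of them WT, from control mice. Kindlin-2, the product of Fermt2, links integrins to the cytoskeleton. Every mouse of both groups had spent 6 hours at 4 °C, so no level without cold was measured. No source used here gives the Cre driver, the fat depot, the age of the mice or whether each library is a separate animal, and p-values measure the spread between these libraries, which may be technical.

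Thyroid hormone leaves the thyroid mainly as the prohormone thyroxine. Brown adipocytes take it up through membrane transporters, and type 2 deiodinase, a selenoprotein of the endoplasmic reticulum encoded by Dio2, removes an iodine to give the active hormone triiodothyronine. Triiodothyronine binds the nuclear receptors encoded by Thra and Thrb, which sit on DNA as heterodimers with retinoid X receptors and regulate genes of heat production such as Ucp1. In brown fat, noradrenaline released in the cold raises Dio2 transcription through cyclic AMP, and the thyrotropin receptor can raise cyclic AMP in adipocytes as well.

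The promoter of Dio2 is shown because cyclic AMP control of this gene is the step that cold is known to switch on. A Thrb window is shown because it holds the receptor binding hexamer AGGTCA. Another Thrb window, chr14:17981394-17981643, holds no AGGTCA but has TATAAA at -167 to -162 from its start, and is not shown. The sequences are those of RefSeq on GRCm38.p6, in which 4 of the 6 genes were matched, and each ends 1 base before the annotated start. Capitals in Dio2 mark the full cyclic AMP response element TGACGTCA, at -95 to -88 from the start, and the TATA box TATAAA at -30 to -25.
Dio2, chr12:90739039-90739288, minus strand: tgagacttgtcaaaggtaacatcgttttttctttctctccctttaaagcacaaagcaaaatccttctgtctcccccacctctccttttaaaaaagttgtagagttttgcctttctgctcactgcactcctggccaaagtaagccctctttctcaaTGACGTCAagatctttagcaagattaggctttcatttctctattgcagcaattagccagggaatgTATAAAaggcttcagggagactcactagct
Capitals in Thrb mark the hexamer AGGTCA at -184 to -179 and the cyclic AMP element core TGACG at -56 to -52.
Thrb, chr14:17660710-17660959, plus strand: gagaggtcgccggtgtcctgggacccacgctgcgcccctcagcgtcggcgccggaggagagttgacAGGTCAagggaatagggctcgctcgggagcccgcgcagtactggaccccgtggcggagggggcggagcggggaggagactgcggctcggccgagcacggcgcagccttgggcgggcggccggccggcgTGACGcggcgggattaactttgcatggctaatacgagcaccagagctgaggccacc

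Among the 32851 windows of 250 bases before a start in the same table, 1.55% held TGACGTCA on either strand, and among the windows of the 4 matched genes Dio2 alone did. The core TGACG, which lies inside the full element and is therefore counted there too, was in 17.8% of windows and AGGTCA in 14%. TATAAA on the gene's strand was in 7.59%. The direct repeat of AGGTCA spaced by 4 bases, to which receptor heterodimers bind, was in 0.0152% of windows and in none of those of the 4 matched genes. AGGTCA also stood at -48 to -43 and, on the opposite strand, at -87 to -82 in a second Rxra window. A letter match describes the sequence and not its use.

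The targeted gene Fermt2 was at 192, 132, 173 and 174.5 CPM (counts scaled to a common library size after TMM, the trimmed mean of M values method) in KO replicates 1 to 4, against 239, 234.5, 244 and 201 CPM in WT replicates 1 to 4. No KO library reached the lowest WT library, and the log2 fold change was -0.45 with an SE of 0.14 (adjusted p = 0.134 in edgeR). Library totals were 35734373 to 40927141 counts in KO and 33672272 to 43253559 in WT. Brown adipocyte transcripts, among them Ucp1, were present in every library: all 11 listed markers were counted, summing to 7680.5 to 10506 CPM in KO and 13166 to 14449 CPM in WT. KO replicate 2 and WT replicate 3 stood apart from the rest. Interferon response genes summed to 4746 CPM in KO replicate 2 and to at most 477 CPM elsewhere, and skeletal muscle genes to 46540 CPM in WT replicate 3 and to at most 359 CPM elsewhere.

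In KO tissue, the receptors Thrb and Rxra and the thyrotropin receptor Tshr were lower in every library than in any WT library, by 0.41 to 0.62 on the log2 scale, and Thra and Slc16a10 averaged lower with overlapping groups. Dio2 had similar mean CPM in both groups, though not similar mean log2 CPM, and spread 15.9-fold among KO libraries, against 1.81-fold among WT libraries. No difference passed the test over all genes: edgeR's quasi-likelihood test called 0 of the 6 and 0% of 13901 genes at an adjusted p under 0.05. At an unadjusted p under 0.05 it marked 2993 genes, 11.1% of all tested as lower in KO, and 4 of the 6 genes here, all lower. DESeq2 called 3 of the 6, Thrb, Rxra and Tshr, where it called 3.42% of the 17619 genes with a p-value as lower. It was run without the filter on low counts, so this share and those over 13901 genes have unlike bases. Limma-voom called 0 of the 6, and with quality weights it called Thrb and Rxra, where it called 3.62% of all genes as lower. All 6 log2 fold changes were below 0, with a median of -0.42, where 49.5% of all tested genes lay lower and the median log2 fold change was 0.00362. KO libraries lay wholly below WT libraries for 3 of the 6 genes and for 7.56% of all tested genes. In whole tissue, fewer cells of a type and less RNA per cell cannot be told apart.

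**Figure D1:**
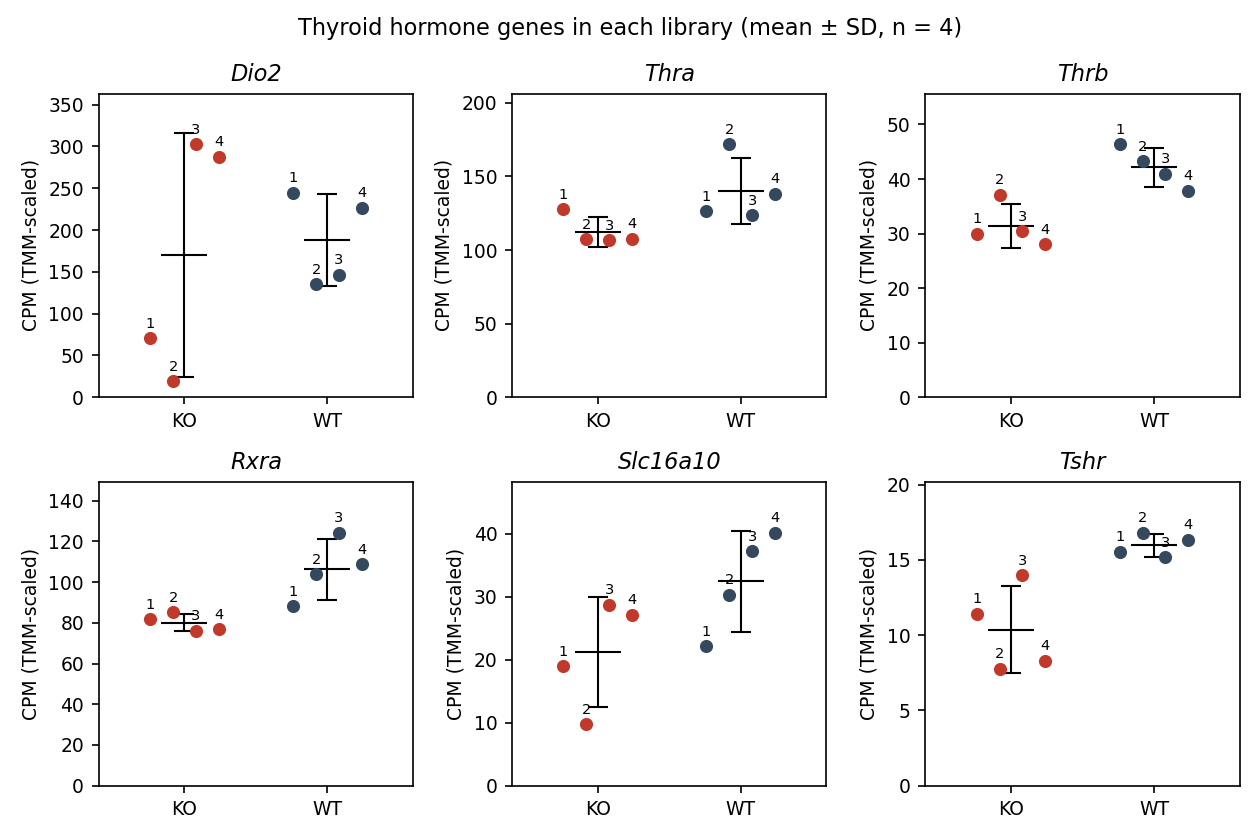
TMM-scaled CPM (vertical axes, from 0) of the 6 genes in KO (red, left) and WT (blue, right) libraries. Numbers are replicates, and lines with bars are means ± SD of 4 libraries. Thrb, Rxra and Tshr have KO points wholly below WT points, whereas Dio2 runs from 19.1 to 303 CPM in KO, below and above all WT points.

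The size of these differences and the separation of the groups rested partly on scaling. With scaling by total counts alone the median of all genes moved to 0.26 and every one of the 6 genes, and Fermt2 and Ucp1 as well, had overlapping groups, where 1.14% of all genes had KO wholly below WT. Under that scaling Thrb was at -0.17, Rxra at -0.15, Tshr at -0.37, Slc16a10 at -0.37 and Thra at -0.061, and Dio2 turned to 0.087. All of these lay below the median of all genes.

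Compared per kilobase of exon, Dio2 and Thra stood highest. Dio2 averaged 29.2 ± 25.1 CPM per kilobase in KO and 32.4 ± 9.52 in WT (SD, n = 4 each). Thra averaged 24.3 ± 2.22 CPM per kilobase in KO and 30.4 ± 4.81 in WT, within the range of Dio2 in both groups. Rxra followed at 14.6 ± 0.778 in KO and 19.5 ± 2.73 in WT, below every Thra library of its group. Thrb was at 4.24 ± 0.536 in KO and 5.69 ± 0.487 in WT. Slc16a10 was at 2.88 ± 1.19 in KO and 4.42 ± 1.09 in WT and overlapped Thrb in both groups. Tshr was lowest, at 1.73 ± 0.481 in KO and 2.66 ± 0.125 in WT, overlapping Slc16a10 in KO and below it in every WT library. Per kilobase the ratio of Thra to Thrb was 6.84, 4.63, 5.62 and 6.18 in KO replicates 1 to 4, against 4.37, 6.38, 4.84 and 5.86 in WT replicates 1 to 4, so the groups overlapped. The counts do not separate the Thra transcripts that encode a hormone-binding receptor from those that encode the form that does not bind hormone.

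Dio2 (ENSMUSG00000007682, chromosome 12), the activating deiodinase, was at 70.7, 19.1, 303 and 287.5 CPM in KO replicates 1 to 4, against 245, 135, 147 and 227 CPM in WT replicates 1 to 4. KO replicates 3 and 4 lay above every WT library and KO replicates 1 and 2 below every one. The means were 170 ± 146 CPM in KO and 188 ± 55.4 CPM in WT (SD, n = 4 each), a log2 fold change of -0.15 ± 0.79 (SE; adjusted p by edgeR = 0.928). The lowest count was 855 and the highest 11664, so counting error of at most 3.42% is small beside this spread. The SD of log2 CPM among KO libraries was 1.90, larger than for 99.5% of the 13901 tested genes, whose median SD was 0.27. Among WT libraries it was 0.43, larger than for 73.7% of them, whose median was 0.25. Without KO replicate 2 the remaining KO libraries still differed 4.28-fold, the KO mean was 220 ± 130 CPM (SD, n = 3), and the log2 fold change was 0.23 (adjusted p = 0.831). With all 8 libraries limma-voom, which averages logarithms, gave -0.79 (adjusted p = 0.595), so the size and sign of the difference depend on the method.

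The libraries' Dio2 and Ucp1 levels were not in proportion. Ucp1, the uncoupling protein of brown fat, was at 2879, 1792.5, 4301 and 4059.5 CPM in KO replicates 1 to 4, against 6000, 6274, 5082 and 6576 CPM in WT replicates 1 to 4. KO replicates 3 and 4, with the most Dio2, had less Ucp1 than any WT library. The per-kilobase ratio of Dio2 to Ucp1 was 0.00691, 0.0030, 0.0198 and 0.0199 in KO replicates 1 to 4, against 0.0115, 0.00606, 0.00811 and 0.00969 in WT replicates 1 to 4. Of the other deiodinases, Dio1 had at most 2 counts in any library and Dio3, which inactivates the hormone, at most 8, and both were below the filter on low counts.

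The tested genes whose log2 CPM profile, centred on its own mean, lay nearest to that of Dio2 over the 8 libraries were Apln, Gfra4 and Nnmt. Their root mean square differences were 0.51, 0.57 and 0.66 log2 units, against a median of 1.28 over 11389 genes. Apln, which encodes the peptide apelin, was at 4.17, 0.938, 7.08 and 6.61 CPM in KO replicates 1 to 4, against 7.17, 3.13, 3.88 and 5.78 CPM in WT replicates 1 to 4. Nnmt, nicotinamide N-methyltransferase, was at 15.0, 6.88, 33.9 and 36.6 CPM in KO replicates 1 to 4, against 20.5, 11.6, 19.7 and 26.7 CPM in WT replicates 1 to 4. Both were lowest in KO replicate 2, as Dio2 was, which the choice by likeness to Dio2 favours. Among the other 5 genes Slc16a10 was the nearest, at 0.84 log2 units.

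**Figure D2:**
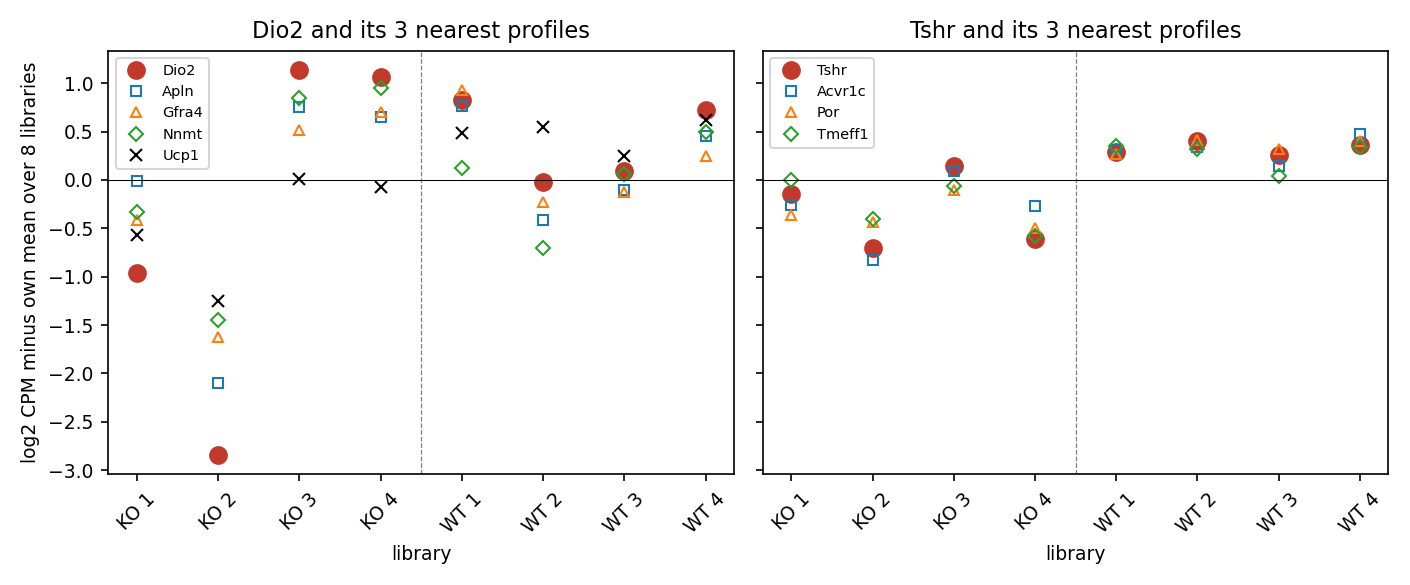
Log2 CPM minus the gene's own mean over the 8 libraries (vertical axis) in KO (left of the dashed line) and WT libraries, for Dio2 and for Tshr with their 3 nearest genes, and for Ucp1. Dio2, Apln, Gfra4 and Nnmt are all lowest in KO replicate 2 and above their means in KO replicates 3 and 4. The nearest genes were chosen for such likeness. The profile of Tshr lies above its mean in every WT library and in KO replicate 3.

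Thra (ENSMUSG00000058756, chromosome 11), the receptor gene with more reads per kilobase of the pair, was at 128, 107, 107 and 108 CPM in KO replicates 1 to 4, against 126.5, 172, 124 and 138 CPM in WT replicates 1 to 4. KO replicate 1 lay inside the WT range and the other KO libraries below it. The means were 112 ± 10.2 CPM in KO and 140 ± 22.2 CPM in WT (SD, n = 4 each), a log2 fold change of -0.32 ± 0.13 (SE; unadjusted p = 0.0379, edgeR adjusted p = 0.210). Without WT replicate 2, the highest library, the log2 fold change was -0.21 (adjusted p = 0.357). The gene shares 263 of its 4614 exon bases with Nr1d1 on the opposite strand in GENCODE M21, and the sources used here do not say whether counting used the strand, so reads of that stretch cannot be assigned with certainty. Nr1d1, the clock repressor REV-ERB alpha, was at 36.0, 69.2, 108 and 91.0 CPM in KO replicates 1 to 4, against 87.1, 192, 126 and 162 CPM in WT replicates 1 to 4. KO replicate 1 thus had the lowest Nr1d1 level and the highest Thra level of its group, while WT replicate 2 had the highest level of both genes.

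Thrb (ENSMUSG00000021779, chromosome 14), the other hormone receptor, was at 30.0, 37.1, 30.4 and 28 CPM in KO replicates 1 to 4, against 46.4, 43.3, 41.0 and 37.9 CPM in WT replicates 1 to 4. Every KO library lay below every WT library, KO replicate 2 by the smallest margin. The means were 31.4 ± 3.97 CPM in KO and 42.1 ± 3.60 CPM in WT (SD, n = 4 each), a log2 fold change of -0.43 ± 0.12 (SE; unadjusted p = 0.00552, edgeR adjusted p = 0.123). Without KO replicate 2 the log2 fold change was -0.52 (adjusted p = 0.0473), past the threshold, where 0.877% of genes were called as lower. Without both KO replicate 2 and WT replicate 3 it was -0.53 (adjusted p = 0.0504). With DESeq2 the adjusted p was 0.0401.

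Rxra (ENSMUSG00000015846, chromosome 2), the retinoid X receptor that pairs with both hormone receptors and with other nuclear receptors such as PPAR gamma, was at 81.8, 85.2, 76.2 and 76.9 CPM in KO replicates 1 to 4, against 88.2, 104, 124 and 109 CPM in WT replicates 1 to 4. The KO libraries were close together and all below WT replicate 1, the lowest of the WT libraries. The means were 80.0 ± 4.26 CPM in KO and 106 ± 14.9 CPM in WT (SD, n = 4 each), a log2 fold change of -0.41 ± 0.12 (SE; unadjusted p = 0.00745, edgeR adjusted p = 0.133). With DESeq2 the adjusted p was 0.0424. The highest WT library was WT replicate 3, and without it the log2 fold change was -0.33 (adjusted p = 0.195). Of the other retinoid X receptors, Rxrb ranged from 94.2 to 105.5 CPM in KO and from 83.8 to 115 CPM in WT, a log2 fold change of -0.02 ± 0.12 (edgeR adjusted p = 0.940). Rxrg averaged 42.7 CPM in KO and 51.3 CPM in WT, a log2 fold change of -0.26 ± 0.22 (edgeR adjusted p = 0.495). The difference between the fold changes of these paralogs was not tested.

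Slc16a10 (ENSMUSG00000019838, chromosome 10), a carrier of aromatic amino acids and thyroid hormone, was at 19.0, 9.74, 28.8 and 27.2 CPM in KO replicates 1 to 4, against 22.2, 30.3, 37.3 and 40.2 CPM in WT replicates 1 to 4. KO replicates 3 and 4 lay within the WT range and KO replicates 1 and 2 below it. The means were 21.2 ± 8.75 CPM in KO and 32.5 ± 8.03 CPM in WT (SD, n = 4 each), a log2 fold change of -0.62 ± 0.33 (SE; adjusted p by edgeR = 0.294). Without KO replicate 2 it was -0.38 (adjusted p = 0.337), and without both that library and WT replicate 3 it was -0.31 (adjusted p = 0.467). The nearest profile was that of Adrb3, the beta-3 adrenergic receptor, at 0.19 log2 units against a median of 0.65 over all genes compared. Adrb3 was at 159, 83.7, 224 and 177 CPM in KO replicates 1 to 4, against 169, 290, 292 and 405 CPM in WT replicates 1 to 4.

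Tshr (ENSMUSG00000020963, chromosome 12), the receptor for thyrotropin, was at 11.4, 7.78, 14.0 and 8.31 CPM in KO replicates 1 to 4, against 15.5, 16.8, 15.2 and 16.4 CPM in WT replicates 1 to 4. The WT libraries differed by 1.11-fold and the KO libraries, all below them, by 1.80-fold. The means were 10.4 ± 2.90 CPM in KO and 16.0 ± 0.752 CPM in WT (SD, n = 4 each), a log2 fold change of -0.62 ± 0.19 (SE; unadjusted p = 0.00992, edgeR adjusted p = 0.142). With DESeq2 the adjusted p was 0.0419. Its counts were the lowest of the 6 genes, down to 337 in a library, a counting error of 5.45%. Thyroid follicle transcripts were close to 0: the 7 of 10 listed markers found in the table summed to 0.369 to 0.849 CPM in KO and 0.352 to 0.930 CPM in WT. The profile nearest to Tshr was that of Acvr1c, an activin receptor of adipocytes, at 0.15 log2 units against a median of 0.48. Acvr1c was at 34.4, 23.2, 44.1 and 34.2 CPM in KO replicates 1 to 4, against 51.1, 52.3, 45.7 and 57.3 CPM in WT replicates 1 to 4, and these groups did not overlap either. Next came Por and Tmeff1, at 0.16 log2 units each, with KO wholly below WT. These genes were picked for their likeness to Tshr over the same libraries, group difference included. Their separation is therefore favoured by the choice and is no separate evidence.

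The profiles nearest to Thra, Thrb and Rxra lay at smaller differences, where the medians over all genes compared were 0.33, 0.35 and 0.35 log2 units. For Thra they were Slc25a40, Elmod3 and Acox3, at 0.06 to 0.08 log2 units. For Thrb they were Agmo, Ppp2r1b and Sfxn1, at 0.08 to 0.09 log2 units. All of these had KO wholly below WT, which the choice by likeness to Thrb favours. For Rxra they were Cenpv, Zmynd19 and Eri3, at 0.06 to 0.07 log2 units.

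**Figure D3:**
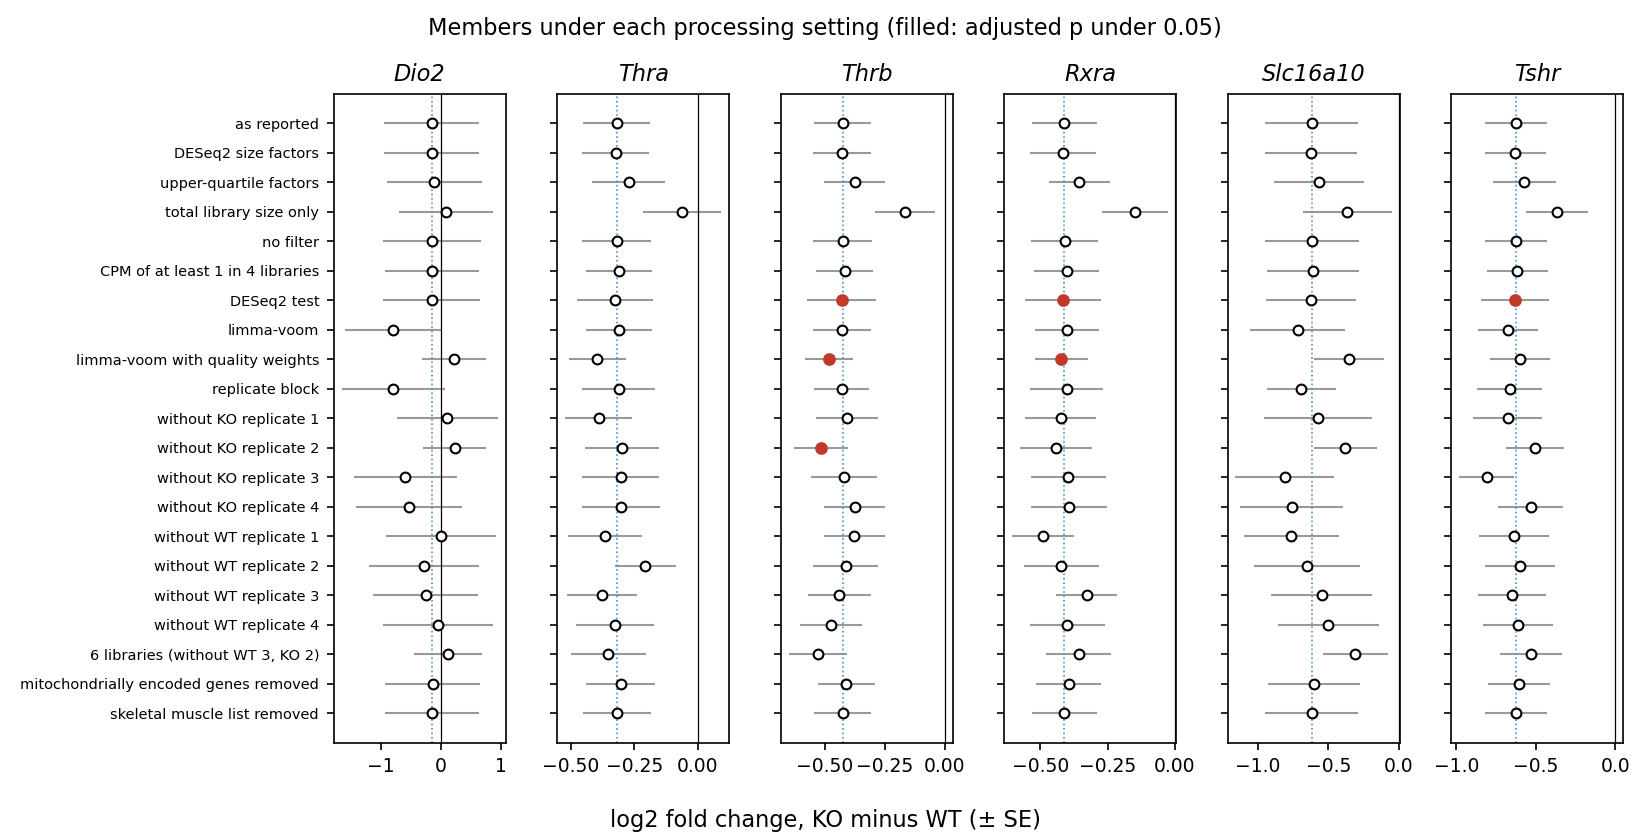
Log2 fold change, KO minus WT, with SE (horizontal axes, which differ in scale) of each gene under the reported fit and 20 alternatives. Filled points have an adjusted p under 0.05. Thrb, Rxra and Tshr lie below 0 in every row and pass in 3, 2 and 1 of them, and Dio2 lies on both sides of 0.

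Summed markers of adipocytes averaged lower in KO and those of endothelial cells higher. Among these adipocyte and endothelial lists, only the brown adipocyte sums did not overlap between groups. The permutation p-values of the marker lists were not corrected for the number of lists. Of 12 general adipocyte markers, 10 lay lower in KO, and they summed to 16817 to 21412 CPM in KO and 20565 to 24541 CPM in WT (exact permutation p = 0.0571, two-sided, where 0.0286 is the smallest p that 4 against 4 can give). Of 11 brown adipocyte markers, Dio2 among them, 10 lay lower (exact permutation p of the sums 0.0286). Abundant genes weigh most in these sums. Ucp1 averaged 3258 CPM in KO and 5983 CPM in WT, and Pdk4 1872.5 CPM in KO and 3504 CPM in WT. Cidea, Cox7a1 and Cox8b were at log2 fold changes of -0.09, -0.23 and -0.10, and Elovl3 and Otop1 at -1.26 and -0.86. The sums without Ucp1 and Pdk4 were not tested. Of 12 endothelial markers, 11 lay higher, and they summed to 2044 to 3576 CPM in KO and 1670 to 2232 CPM in WT (exact permutation p = 0.0857). With total-count scaling the median log2 fold changes were -0.10 for general adipocyte, -0.14 for brown adipocyte and 0.93 for endothelial markers. The median of all genes was then 0.26.

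Immune cell markers averaged higher in KO. All 6 B and plasma cell markers lay higher, summing to 18.9 to 40.5 CPM in KO and 10.4 to 16.7 CPM in WT, with groups that did not overlap (exact permutation p = 0.0286). All 10 T and NK cell markers lay higher, with a median log2 fold change of 2.04, and summed to 22.2 to 218 CPM in KO and 4.37 to 35.3 CPM in WT (exact permutation p = 0.143). All 9 macrophage markers lay higher, with a median of 0.47, and summed to 231 to 649 CPM in KO and 193.5 to 301 CPM in WT (exact permutation p = 0.286). KO replicate 2 had the highest sum of all 3 lists, and with the 6 libraries the median log2 fold change was 0.58 in the B and plasma cell list, 0.84 in the T and NK cell list and 0.17 in the macrophage list. No listed marker of these types was at 0. The part of composition in the values of the 6 genes was not tested.

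Around these genes, 87 other genes of the pathway were tested in 9 lists. Their median log2 fold change was -0.04, with 49 lower and 38 higher, 0 called by edgeR with all 8 libraries, 17 lower and 6 higher at an unadjusted p under 0.05 (11.1% and 10.4% of all tested genes). DESeq2 called 6 as lower and 5 as higher, where it called 3.42% and 2.9% of the 17619 genes with a p-value, unfiltered for low counts. In the edgeR comparison of the 6 libraries without KO replicate 2 and WT replicate 3, 4 were called as higher and 1 as lower, where 1.82% and 1.5% of all genes were called.

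**Figure D4:**
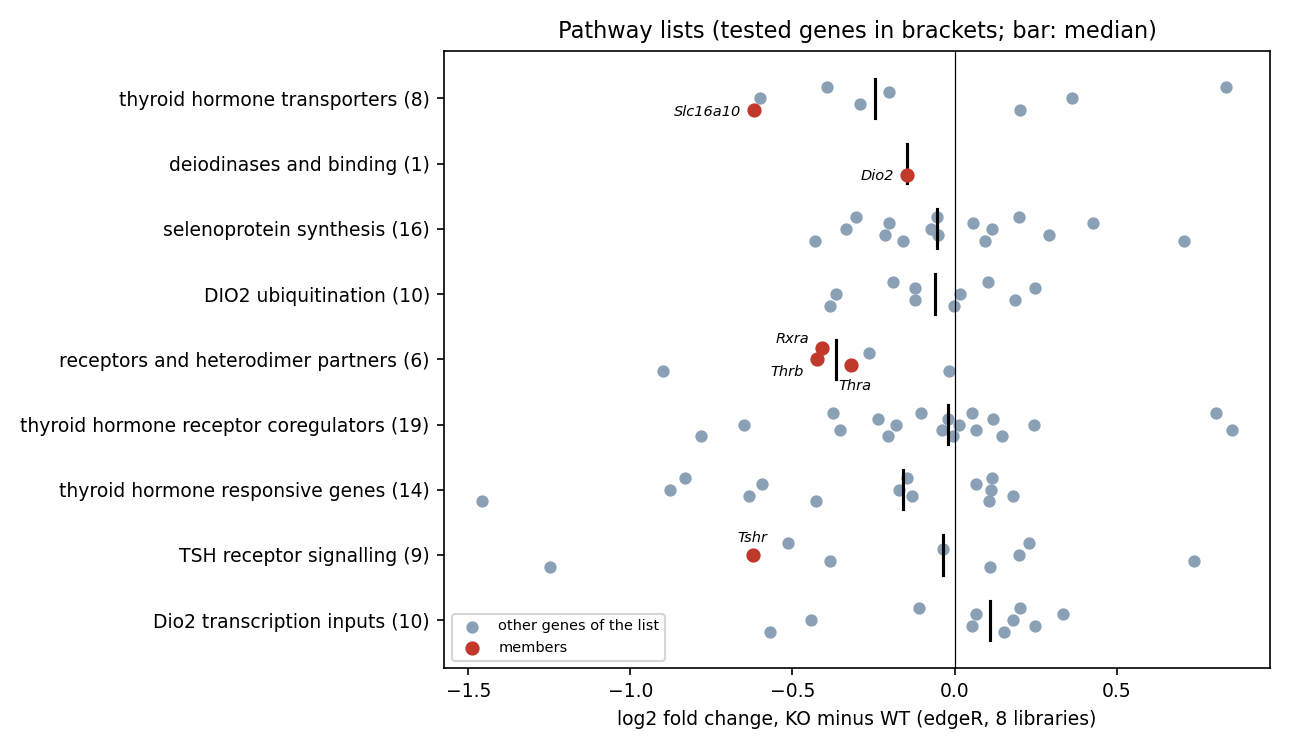
Log2 fold change, KO minus WT, of each tested gene in 9 pathway lists, with bars at list medians. The 6 genes described here (red) all lie below 0, and list medians run from -0.36 for the receptors to 0.11 for the Dio2 transcription inputs.

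Each list's counts and median below include any of the 6 genes in it. With total-count scaling the transporter and receptor medians were -0.02 and -0.10, that of the deiodinase list, in which Dio2 was the single gene tested, 0.087, and those of the other 6 lists 0.08 to 0.37, where the median of all genes was 0.26. With the 6 libraries Dio2, alone in its list, was at 0.12, and the medians were 0.011 for ubiquitination and 0.017 for coregulators, with the sign turned. They were farther from 0 for the transporters (-0.28), the responsive genes (-0.35) and the Dio2 transcription inputs (0.21). The medians of the selenoprotein list and the thyrotropin receptor list, at -0.11 each, were farther from 0 too.

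Transporters of thyroid hormone lay on both sides, 5 lower and 3 higher with a median of -0.25. Slco2b1, an organic anion transporter, was at 118, 90.5, 85.3 and 115 CPM in KO replicates 1 to 4, against 56.6, 55.3, 53.5 and 63.4 CPM in WT replicates 1 to 4. All KO libraries lay above all WT libraries, which was so for 5.8% of tested genes, and the log2 fold change was 0.84 ± 0.13 (SE; adjusted p by edgeR = 0.0874, and 0.0313 with 6 libraries).

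Genes for making selenoproteins, the class to which the deiodinase belongs, and for its ubiquitination had list medians near that of all genes. Of 16 genes for selenoprotein synthesis or for other selenoproteins, 9 lay lower and 7 higher with a median of -0.05. Gpx1, a glutathione peroxidase, averaged 30.4 CPM in KO and 22.6 CPM in WT, a log2 fold change of 0.43 ± 0.10 (edgeR adjusted p = 0.102). Txnrd1, the cytosolic thioredoxin reductase, averaged 52.4 CPM in KO and 66.1 CPM in WT, a log2 fold change of -0.34 ± 0.10 (edgeR adjusted p = 0.131), and Pstk, a kinase needed to make selenocysteine, was at -0.43 ± 0.20. Of 10 ubiquitination genes, 6 lay lower and 4 higher with a median of -0.06. March6, a ubiquitin ligase of the endoplasmic reticulum that acts on this deiodinase, averaged 99.3 CPM in KO and 128 CPM in WT with groups that did not overlap (log2 fold change -0.37 ± 0.11; edgeR adjusted p = 0.140). Wsb1, the adaptor of another such ligase, was at 0.25 ± 0.22 (edgeR adjusted p = 0.518) and the ligase scaffold Cul5 at -0.39 ± 0.18 (edgeR adjusted p = 0.250). Cul5 was far higher in WT replicate 3 than in the other WT libraries, and with the 6 libraries its log2 fold change was -0.12 (edgeR adjusted p = 0.564).

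Of 19 receptor coregulators, 11 lay lower and 8 higher with a median of -0.02. Ncoa3, a coactivator, was at 113, 57.3, 92.0 and 114 CPM in KO replicates 1 to 4, against 46.4, 63.7, 39.4 and 58.4 CPM in WT replicates 1 to 4. KO replicate 2 alone overlapped the WT range, and the log2 fold change was 0.86 ± 0.24 (SE; adjusted p by edgeR = 0.122, and 0.0289 with 6 libraries). Ppargc1b, PGC-1 beta, averaged 98.0 CPM in KO and 56.0 CPM in WT, a log2 fold change of 0.81 ± 0.26 (edgeR adjusted p = 0.155). Tbl1xr1, part of the NCoR corepressor complex, averaged 44.5 CPM in KO and 56.8 CPM in WT with groups apart, a log2 fold change of -0.35 ± 0.12 (edgeR adjusted p = 0.158).

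Of 14 tested genes known to respond to thyroid hormone in other settings, 9 lay lower and 5 higher with a median of -0.16. Pck1, phosphoenolpyruvate carboxykinase, averaged 3413 ± 625 CPM in KO and 5292 ± 816 CPM in WT (SD, n = 4 each), a log2 fold change of -0.63 ± 0.17 (SE; adjusted p by edgeR = 0.122, and 0.0377 with 6 libraries). Ucp1 differed by -0.88 ± 0.25 (edgeR adjusted p = 0.131, and 0.0581 with 6 libraries). Dbp, a clock output factor, was at 0.714, 5.12, 6.71 and 3.87 CPM in KO replicates 1 to 4, against 6.06, 17.7, 13.0 and 8.37 CPM in WT replicates 1 to 4 (log2 fold change -1.46 ± 0.60, edgeR adjusted p = 0.213). Dbp was thus lowest in the same library as Nr1d1, KO replicate 1.

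In the thyrotropin receptor list of 9 tested genes, 5 lay lower and 4 higher with a median of -0.04. Adcy3, an adenylyl cyclase that makes cyclic AMP, was at 21.9, 43.8, 45.8 and 27.97 CPM in KO replicates 1 to 4, against 123, 57.4, 57.2 and 92.9 CPM in WT replicates 1 to 4. The groups did not overlap, and the log2 fold change was -1.25 ± 0.32 (SE; adjusted p by edgeR = 0.118, and 0.0679 with 6 libraries). Arrb2, a beta-arrestin, averaged 23.7 CPM in KO and 14.2 CPM in WT, a log2 fold change of 0.74 ± 0.19 (edgeR adjusted p = 0.112, and 0.0472 with 6 libraries). Lgr4, a receptor of the same family as Tshr, was at -0.51 ± 0.15 (edgeR adjusted p = 0.131). The thyrotropin subunit Tshb had at most 16 counts in any library, and so did Gpha2, a subunit of the other ligand thyrostimulin.

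Of 10 tested genes that act on Dio2 transcription, 7 lay higher and 3 lower with a median of 0.11. Nfkb1 averaged 52.4 CPM in KO and 41.6 CPM in WT with groups apart, a log2 fold change of 0.33 ± 0.10 (edgeR adjusted p = 0.133). Atf2, a factor that binds cyclic AMP response elements, averaged 61.0 CPM in KO and 83.0 CPM in WT, a log2 fold change of -0.44 ± 0.16 (edgeR adjusted p = 0.180), and Crem, a modulator at the same elements, was at 0.25 ± 0.14 (edgeR adjusted p = 0.303). Mef2c, named after its values were seen, was called as higher with 6 libraries (0.80, edgeR adjusted p = 0.0425) and lay at -0.57 with all 8, since WT replicate 3, rich in muscle transcripts, had 124 CPM and the other WT libraries 17.0 to 19.0 CPM.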

How the data were processed

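The deposited table holds whole-number counts per gene from 4 KO and 4 WT libraries of polyadenylated RNA, made with a dUTP strand-marking kit, per the labels' protocols. The submitters' processing notes list GRCm39. The aligner, counter and annotation: not given in the sources used here. Symbols, exon lengths and overlaps came from GENCODE M21 (18321 of 18395 genes named). March6 is the older symbol of Marchf6, and Cga and Nkx2-5 of the pathway lists were not matched. The 2 groups were compared with the edgeR package (4.0.16, R 4.3.3; filterByExpr by group, 13901 genes kept, TMM, robust quasi-likelihood F test, group only, Benjamini-Hochberg, threshold 0.05), which was tested on simulated data. The SE is the log2 fold change over the root of F. CPM uses TMM-scaled totals, and profiles use log2 CPM with a prior count of 2. Named are the 6 genes, Fermt2, Ucp1, up to 3 genes of smallest p per pathway list, and the 3 nearest profiles per gene, among genes whose log2 CPM averaged 1 or more. Any other gene was picked with its values in view. The 6 genes and all lists were chosen with earlier results of these data known. Other tools were DESeq2 1.42.0, limma 3.58.1, scipy 1.17.1 and matplotlib 3.10.9. Alternatives covered scaling, filters, tools, a replicate block, left-out libraries and removed gene lists. A gene that the naming rule picked is not reported here.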

Additional observations from a re-analysis of the deposited data

Results flagged for a closer look

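Among 28 genes of interest, the CPM values of each group of 4 were screened for a library far from the other 3, and 5 of 56 groups held one, where chance gives about 1 in 20. Thra was at 128 CPM in KO replicate 1, against 107 to 108 CPM in the other KO libraries. Wsb1 was at 58.4 CPM in KO replicate 1, against 41.3 to 43.3 CPM in the others. Gpx1 was at 33.1 CPM in KO replicate 4, against 29.3 to 29.9 CPM. Arrb2 was at 34.3 CPM in KO replicate 2, against 19.8 to 20.7 CPM, and T and NK cell genes summed to 218 CPM in that library and to 22.2 to 41.5 CPM in the other KO libraries. Cul5 was at 53.2 CPM in WT replicate 3, against 30.2 to 32.4 CPM, in the library with the muscle transcripts. The part of immune or muscle RNA in these values was not tested.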

How the results depend on the processing

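Thra, Thrb, Rxra, Slc16a10 and Tshr lay lower in KO under all 20 alternatives, and Thra and Slc16a10 passed in none (adjusted p 0.0632 to 0.806 and 0.202 to 0.490). Thrb passed with DESeq2 (-0.43), with limma-voom with quality weights (-0.48) and in edgeR without KO replicate 2 (-0.52). Rxra passed with DESeq2 and with limma-voom with quality weights (-0.42 each), and Tshr with DESeq2 (-0.63). Leaving out each library in turn gave -0.52 to -0.38 for Thrb, -0.49 to -0.33 for Rxra, -0.81 to -0.51 for Tshr, -0.39 to -0.21 for Thra, -0.81 to -0.38 for Slc16a10 and -0.59 to 0.23 for Dio2. Dio2 turned to 0.087 with total counts only, 0.22 with quality weights, 0.12 with 6 libraries, 0.11 without KO replicate 1, 0.23 without KO replicate 2 and 0.0044 without WT replicate 1. Limma-voom, which averages logarithms, put it at -0.79, and no alternative called it (adjusted p 0.595 to 0.999).

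Over all genes, where 0 were called, total counts only gave 882 (858 higher and 24 lower), no filter 1, DESeq2 1113, limma-voom with quality weights 911 and 6 libraries 461. Leaving out 1 library gave 0 to 361, the 361 without KO replicate 2. A replicate block gave 0 calls. Same-numbered libraries correlated at -0.05, 0.04, -0.13 and 0.22, and 3 of 8 correlated best with their own number. These values cannot settle whether equal numbers pair the samples, and the reported fit used group only. The depth limits Tshr most, with counts down to 337.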

Other observations

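Hr, a nuclear corepressor known as a thyroid hormone target in brain, was at 29.5, 48.9, 11.4 and 9.44 CPM in KO replicates 1 to 4, against 24.6, 16.0, 36.2 and 15.5 CPM in WT replicates 1 to 4. Hr, Fasn and Thrsp were named after their values were seen. In KO the library with the least Dio2, replicate 2, had the most Hr, and the 2 libraries with the most Dio2, replicates 3 and 4, had the least. In WT the library with the most Hr, replicate 3, was not the one with the least Dio2. Lipogenic genes of the hormone-responsive list also spread widely within KO: Fasn, fatty acid synthase, was at 657, 6456, 3172 and 2322 CPM in KO replicates 1 to 4, against 3866, 3289, 2045 and 4754 CPM in WT replicates 1 to 4. Thrsp, a lipogenic gene induced by thyroid hormone in liver, was at 385, 1113, 1090 and 950 CPM in KO replicates 1 to 4, against 1022, 802, 582 and 972 CPM in WT replicates 1 to 4. Both were lowest in KO replicate 1 and both were highest in KO replicate 2, where Dio2 was lowest. No test was made of these patterns.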
